A study of Homo sapiens with 4 samples.

Results

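The genes of RNA polymerases I, II and III, of the general transcription factors and of the Mediator complex were examined after knockdown of MYC in OCI-Ly10, a cell line established from a human diffuse large B-cell lymphoma. Members were taken by gene symbol: those that start with GTF, POLR1, POLR2, POLR3, RPAP or ERCC, those that start with TAF or MED and a digit, and TBP, CDK7, CCNH, MNAT1, CDK8 and CDK9. The array carried 52 such genes. A value on at least 2 arrays was found for 49 of them, out of 8509 genes and unnamed features with as many values, and 46 had a value on all 4 arrays. MED10 and MED16 were measured on 1 array each and TAF2 on none, so these 3 were left out. The symbol rule also takes in genes that act outside transcription initiation, such as the excision repair genes ERCC1, ERCC4, ERCC5 and ERCC8.

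RNA polymerase I makes ribosomal RNA, RNA polymerase II messenger RNA, and RNA polymerase III transfer RNA and the 5S ribosomal RNA. Polymerase II starts at promoters with the help of TFIIA, TFIIB, TFIID, TFIIE, TFIIF and TFIIH, and Mediator carries signals from enhancer-bound factors to it. MYC, the factor targeted here, is a transcription factor that binds E-box DNA together with MAX and is known to act on genes transcribed by each of the polymerases.

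Each array compared cells electroporated with 4 uM of a siRNA pool against MYC (Cy5) with control cells (Cy3), with 0 dye swaps. The controls of 2 arrays, harvested after 8 h and 24 h, received a nonspecific Renilla luciferase siRNA at the same concentration. Those of the other 2, harvested after 6 h and 24 h, received electroporation solution and no siRNA. All cells, controls included, thus went through electroporation, and there was 1 array for each combination of control and time. Where 4 values of a gene are listed, they are in the order 8 h then 24 h with control siRNA, 6 h then 24 h with no siRNA. The values are the authors' log ratios, taken here as log2 of MYC siRNA over control, so a value below 0 means less transcript with MYC siRNA. That direction is likely rather than stated, and would turn every sign below if it were the other way. In RNA of whole cultures, less transcript per cell and fewer cells that hold it cannot be told apart.

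The arrays held values for 12028 to 12784 features. MYC itself, whose sign helped set the direction, averaged -0.89 ± 0.39 (SD, n = 4), or 53.8% of control (limma adjusted p = 0.0146). Its values were -0.94, -0.35, -1.26 and -1.03, so the drop was weakest on the 24 h array against control siRNA. Ratios within 1 cell line hold no expression levels, so the B-cell identity of the line could not be checked from them. Of the markers measured on all arrays, 2 of 9 B-cell genes rose and 0 fell, and 0 of 9 T cell, 0 of 2 monocyte and 0 of 3 erythroid genes passed the test. Their medians were -0.06, 0.16, 0.16 and 0.02, and the part of such genes in the results that follow was not tested.

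Most of the transcription machinery genes lay slightly below control. Those that fell were GTF2H1, MNAT1 and GTF2H3 of TFIIH, POLR2H and POLR1D of the polymerases, TAF1D, GTF2F2, TAF9, MED1 and ERCC8. Of the 46 genes with a value on all arrays, 10 fell, 1 rose and 35 did not pass (limma, mean against 0, adjusted p under 0.05 over 6798 rows). That is 23.9% called, where 15.8% of all rows were called, and 21.7% lower, where 10.2% of all rows were lower. The 1 that rose stands against 5.56% of all rows that were higher. Among the 3954 named genes by themselves 14.8% were called and 9.71% were lower. The 10 genes that fell had means from -0.61 to -0.29, and the 1 that rose, RPAP2, had a mean of 0.64. At an unadjusted p under 0.05 in limma there were 14 of 46 genes (30.4%), where 35.4% of all rows had such a p.

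The median of the 46 means was -0.12, with quartiles of -0.26 and -0.01, while all rows had a median of -0.003 and quartiles of -0.17 and 0.16. Means were below 0 for 35 of the 46 genes (76.1%), against 50.5% of all rows. By array, in the same order, the medians of the 46 genes were -0.13, -0.07, -0.10 and -0.25. The medians of all rows on those arrays were -0.004, 0.01, -0.01 and -0.04. The members' median was thus the lower one on each of the 4 arrays. The genes were below 0 on all 4 arrays in 19 cases (41.3%), where 23.3% of all rows were, and above 0 on all 4 in 4 cases (8.70%), where 19.4% of all rows were.

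**Figure D1:**
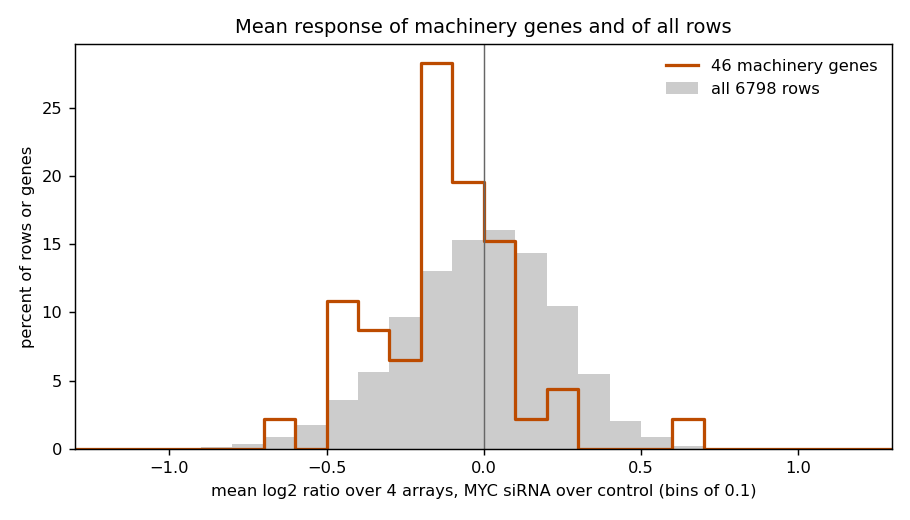
Share of genes or rows (y axis, percent) by mean log2 ratio over 4 arrays (x axis, MYC siRNA over control, bins of 0.1). The line shows the 46 transcription machinery genes, whose median was -0.12, and the grey bars all 6798 rows, whose median was -0.003.

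The histogram of means shows that the shift came from many small values as well as from the genes that passed. The genes were most frequent between -0.2 and -0.1, and RPAP2 stands by itself at the right.

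**Figure D2:**
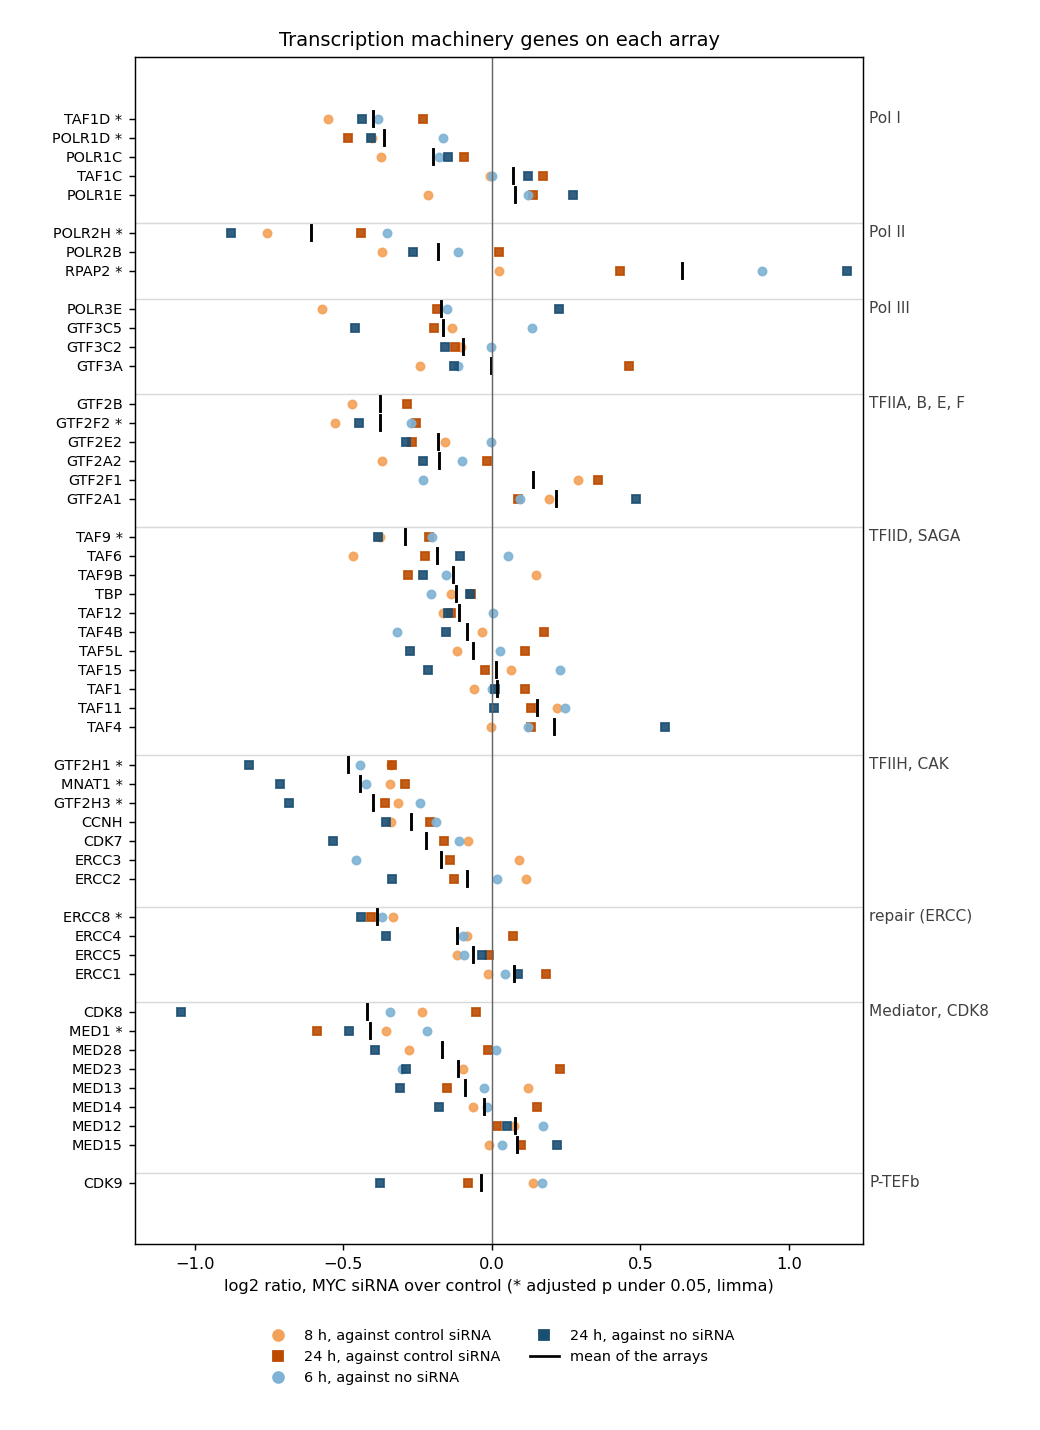
Log2 ratio (x axis, MYC siRNA over control) of each of the 49 genes with at least 2 values, on each array (circles for 6 h and 8 h, squares for 24 h, orange for control siRNA, blue for no siRNA), with black bars for means and a star for genes past the test. The genes are grouped by complex, and 10 of the 11 starred genes lie below 0.

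The plot of values by array groups the genes by complex. The number of arrays limits the precision of each mean, and the median standard error of a mean over all rows was 0.10. Values were close together for ERCC8 and GTF3C2 and wide apart for RPAP2, CDK8 and POLR3E.

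TFIIH is the factor that opens promoter DNA and phosphorylates the tail of RNA polymerase II, and it also serves nucleotide excision repair. Its genes had the lowest median of the groups, -0.34. Of 6 tested, 3 fell, 0 rose and 3 missed the threshold, and 5 of the 6 were below 0 on all arrays. GTF2H1, which encodes the p62 subunit of the TFIIH core, had values of -0.34, -0.34, -0.44 and -0.82. All arrays were low, the last one most. The mean was -0.48 ± 0.23 (SD, n = 4), or 71.5% of control (limma adjusted p = 0.0227). MNAT1, the assembly factor MAT1 of the CDK-activating kinase, was at -0.34, -0.29, -0.42 and -0.71. The array at 24 h without siRNA was again the lowest. Its mean was -0.44 ± 0.19 (SD, n = 4), or 73.6% of control (limma adjusted p = 0.0232). GTF2H3, which encodes the p34 core subunit, was at -0.32, -0.36, -0.24 and -0.68, a mean of -0.40 ± 0.19 (SD, n = 4; limma adjusted p = 0.0290).

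The other kinase genes lay in the same direction without passing. CCNH, the cyclin of the CDK-activating kinase, was at -0.34, -0.21, -0.19 and -0.36. Its mean of -0.27 ± 0.09 (SD, n = 4) just missed the threshold (limma adjusted p = 0.0554). CCNH passed with scaled arrays (0.0435) and with time and control as terms (0.0346). It did not in the other 11 of 13 alternatives. With an array left out its limma adjusted p lay between 0.0951 and 0.147. CDK7, the kinase itself, was at -0.08, -0.16, -0.11 and -0.53, so that 1 array held most of its mean of -0.22 (limma adjusted p = 0.148). Without that array the mean of CDK7 was -0.12. The features of CDK7 were not the same on each array. The 1 feature with 4 values was at -0.26, -0.24, -0.11 and -0.52. Neither of the TFIIH helicase genes passed or had 1 sign. ERCC2 was at 0.11, -0.13, 0.02 and -0.33, with a 95% interval for the mean from -0.30 to 0.14. ERCC3 had no value at 24 h against no siRNA and was at 0.09, -0.14 and -0.46 on the others. On the same 3 arrays 1 of its features was at -0.36, -0.38 and -0.46. The other had values against control siRNA alone, at 0.54 and 0.095. The ERCC3 values thus do not average the same features on each array. The kinase and core genes that fell and the helicase genes were not tested against each other.

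**Figure D3:**
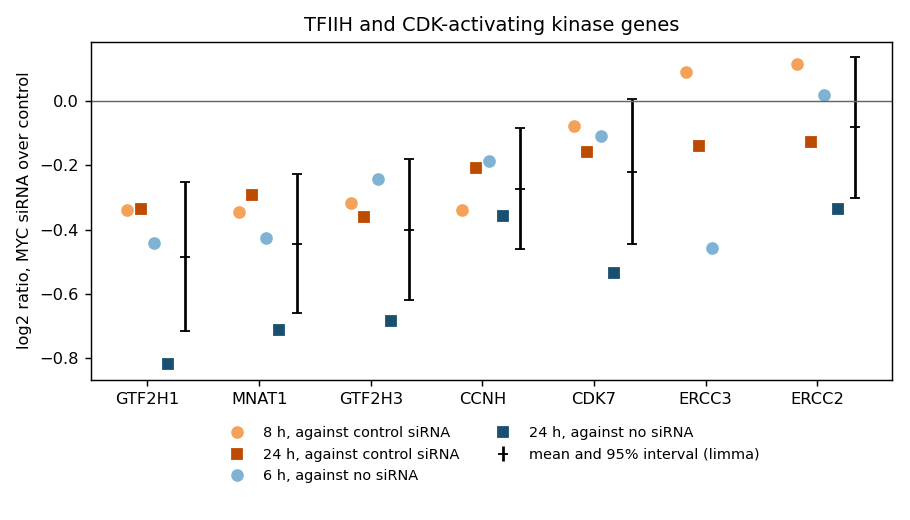
Log2 ratio (y axis, MYC siRNA over control) of 7 TFIIH and CDK-activating kinase genes on each array (coloured points), with the mean and its 95% interval from limma (black) for the 6 genes with 4 values. GTF2H1, MNAT1, GTF2H3, CCNH and CDK7 are below 0 on all arrays, while ERCC2 and ERCC3 have values on both sides of 0.

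In the plot of TFIIH genes the 24 h array against no siRNA is the lowest point of every gene measured there. For CCNH this rests on a feature with values against no siRNA alone, at -0.19 and -0.45. Its feature with 4 values was at -0.34, -0.21, -0.19 and -0.26, lowest at 8 h. The spread of all 6798 rows was also widest on the 24 h array against no siRNA (SD 0.42, against 0.26 to 0.30 on the others). The TFIIH median by array was -0.33, -0.25, -0.22 and -0.61.

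GTF2H1 was also the only gene past the test whose promoter window held the E-box CACGTG, in 2 copies. The window runs from 250 bases before to 50 bases after the RefSeq start of the gene on GRCh38.p14, at chr11:18322317-18322616 on the plus strand. It is shown because MYC is the factor that was knocked down, with both copies in capitals.

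GTF2H1: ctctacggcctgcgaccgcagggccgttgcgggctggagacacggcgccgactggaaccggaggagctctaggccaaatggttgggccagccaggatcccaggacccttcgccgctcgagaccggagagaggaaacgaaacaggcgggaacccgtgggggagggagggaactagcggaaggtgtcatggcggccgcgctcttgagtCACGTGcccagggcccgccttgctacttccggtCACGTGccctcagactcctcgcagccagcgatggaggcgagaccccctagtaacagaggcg

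The copies start 44 and 11 bases before the start of the gene. CACGTG reads the same on both strands, so 1 search covers both. A match is a description of these letters and not evidence of binding.

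Of the polymerase subunits, POLR2H and POLR1D fell, and both serve more than 1 polymerase. POLR2H, which encodes the RPB8 subunit that all 3 polymerases share, had values of -0.76, -0.44, -0.35 and -0.88, low on every array. It had the lowest mean of the 46 genes, -0.61 ± 0.25 (SD, n = 4), or 65.7% of control (limma adjusted p = 0.0173). POLR1D, a subunit shared by polymerases I and III, was at -0.40, -0.49, -0.16 and -0.41, a mean of -0.36 ± 0.14 (SD, n = 4; limma adjusted p = 0.0299). This gene mean joins features that differ, as described further on. POLR1C, its partner in the same polymerases, was also below 0 on all arrays (-0.37, -0.09, -0.18 and -0.15) but did not pass, with a mean of -0.20 (limma adjusted p = 0.138). POLR2B, the second-largest subunit of polymerase II, averaged -0.18 without passing (limma adjusted p = 0.196). Shared and other subunits were not tested against each other.

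The promoter window of POLR2H, at chr3:184361460-184361759 on the plus strand of GRCh38.p14, held no CACGTG and no CANNTG. It is printed beside that of GTF2H1 as the lowest gene without the motif.

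POLR2H: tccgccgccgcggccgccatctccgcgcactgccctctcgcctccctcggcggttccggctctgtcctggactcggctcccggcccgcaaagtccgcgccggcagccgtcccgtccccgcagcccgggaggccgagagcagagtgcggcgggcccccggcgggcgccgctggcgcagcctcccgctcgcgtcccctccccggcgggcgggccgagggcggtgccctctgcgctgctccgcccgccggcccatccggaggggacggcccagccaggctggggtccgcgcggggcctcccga

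RPAP2, which removes phosphates from the tail of polymerase II and helps bring the enzyme into the nucleus, was the 1 gene that rose. Its values were 0.02, 0.43, 0.91 and 1.20. Both values with no siRNA as control were above both with control siRNA, with pair means of 1.05 and 0.23. The difference between the kinds of control, 0.82 with a standard error of 0.18, did not pass (limma adjusted p = 0.0803). It passed with centred arrays (0.00926), with the median of features (0.00452) and with features complete on all arrays (0.0409). It did not with scaled arrays (0.513), robust moderation (0.0887) or the control term by itself (0.556). RPAP2 rests on 1 feature, so the median and complete-feature fits had the same difference of 0.82. Their lower p-values came from the other rows. With centred arrays the standard error was 0.21 for RPAP2, CDK8, POLR3E and CDK9 alike, so it was a pooled one. The identifiers of the arrays fall in 2 ranges, 1 for each kind of control, and the labels do not say whether these are batches, so the control and a batch cannot be told apart.

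At polymerase I promoters, TAF1D, a subunit of the selectivity factor SL1, fell. TAF1D was at -0.55, -0.23, -0.38 and -0.44, a mean of -0.40 ± 0.13 (SD, n = 4), or 75.8% of control (limma adjusted p = 0.0246). Its 3 features gave means from -0.43 to -0.38, and each passed by itself. TAF1C, also of SL1, did not pass and was at -0.01, 0.17, 0.002 and 0.12 (mean 0.07, 95% interval -0.12 to 0.26). POLR1E, a polymerase I subunit that acts in initiation and elongation, was at -0.21 at 8 h and between 0.12 and 0.27 on the other arrays (limma adjusted p = 0.590). Of the 5 polymerase I genes 2 fell, 0 rose and 3 did not pass, with a median of -0.20.

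None of the 4 polymerase III genes passed the test in limma, and their median was -0.13. POLR3E, a subunit of the enzyme, had values of -0.57, -0.18, -0.15 and 0.23, a wide spread with the 8 h array lowest. Its values against no siRNA average in a feature measured on those arrays alone. The feature with 4 values was there at -0.28 and 0.025. GTF3C2 and GTF3C5, subunits of TFIIIC, averaged -0.10 and -0.16. GTF3A, the TFIIIA protein that binds the 5S gene, was at 0.46 on the 24 h array against control siRNA and between -0.24 and -0.11 on the others.

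Of the polymerase II factors TFIIA, TFIIE and TFIIF with 4 values, 1 of 4 fell and 0 rose (median -0.18). GTF2F2, the RAP30 subunit of TFIIF, was at -0.53, -0.25, -0.27 and -0.45, all low, with a mean of -0.37 ± 0.13 (SD, n = 4; limma adjusted p = 0.0276). Its partner GTF2F1, the RAP74 subunit, was measured on 3 arrays and pointed both ways, at 0.29, 0.36 and -0.23. TFIIA had its genes on opposite sides: GTF2A1 was above 0 on all arrays (0.19, 0.09, 0.10 and 0.48) and GTF2A2 below 0 on all (-0.37, -0.02, -0.10 and -0.23). Neither passed, with means of 0.21 and -0.18 (limma adjusted p = 0.142 and 0.188). GTF2E2, of TFIIE, averaged -0.18 (limma adjusted p = 0.175). GTF2B, the TFIIB gene, was measured against control siRNA alone, at -0.47 and -0.29. In a fit over rows with at least 2 arrays it did not pass (limma adjusted p = 0.115). That fit called 10 of the 49 genes, 9 lower and 1 higher, where 9.23% of its rows were called.

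TFIID binds core promoters through TBP and its associated factors, some of which also belong to the coactivator SAGA. Of 11 genes of this group, TAF9 fell, 0 rose and 10 did not pass, with a median of -0.08. TAF9, found in both complexes, was at -0.38, -0.21, -0.20 and -0.38, a mean of -0.29 ± 0.10 (SD, n = 4; limma adjusted p = 0.0465). It was the last gene to pass, and did not when rows with at least 2 arrays were fitted (0.0636). Its paralog TAF9B was at 0.15 at 8 h and between -0.28 and -0.15 elsewhere. TBP itself was below 0 on all arrays, between -0.20 and -0.07, with a mean of -0.12 (95% interval -0.31 to 0.06; limma adjusted p = 0.313). TAF11 was above 0 on all arrays, between 0.007 and 0.25, and TAF4 averaged 0.21 with 0.58 on the 24 h array against no siRNA. Neither passed (limma adjusted p = 0.232 and 0.196). TAF6, a histone-fold partner of TAF9, averaged -0.19, TAF12 -0.11, TAF4B -0.08 and TAF5L -0.06, while TAF15 and TAF1 averaged 0.01 and 0.02.

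In Mediator, MED1 fell and 7 of 8 genes did not pass (median -0.10). MED1, the subunit that nuclear receptors bind, had values of -0.36, -0.59, -0.22 and -0.48. In both pairs the later array was lower, by a difference of -0.25 on average that did not pass (limma adjusted p = 0.726). The mean was -0.41 ± 0.16 (SD, n = 4), or 75.2% of control (limma adjusted p = 0.0251). CDK8, the kinase of Mediator's kinase module, had about the same mean, -0.42, but a wide spread (SD 0.43, n = 4), with -1.05 on the 24 h array against no siRNA and between -0.34 and -0.05 on the others. It did not pass (limma adjusted p = 0.0792), and without that array its mean was -0.21. CDK8 passed with scaled arrays (limma adjusted p = 0.0459), with time and control as terms (0.00680) and with no siRNA as the only control (0.00235). It did not in the other 10 of 13 alternatives. The fit against no siRNA alone used a pooled standard error. It thus did not weigh the gap between the values of CDK8 on those arrays, -0.34 and -1.05. The fit with terms also rests mostly on the pooled spread. MED12 and MED13, which sit in the kinase module with CDK8, averaged 0.08 and -0.09. MED28 averaged -0.17, MED23 -0.11, MED14, the backbone subunit, -0.03, and MED15 0.09.

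CDK9, the kinase of the elongation factor P-TEFb, was above 0 on the early arrays (0.14 and 0.17) and below 0 at 24 h (-0.08 and -0.38). Its mean was -0.04 (95% interval -0.28 to 0.20), and the difference of -0.38 between 24 h and early did not pass (limma adjusted p = 0.502).

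Among the repair genes taken in by their ERCC symbol, ERCC8 fell and 3 of 4 did not pass. ERCC8, which encodes the CSA protein of transcription-coupled repair, was at -0.33, -0.41, -0.37 and -0.44. These are the closest values of any gene that fell, with a mean of -0.39 ± 0.05 (SD, n = 4), or 76.4% of control (limma adjusted p = 0.0217). ERCC1 averaged 0.08, ERCC4 -0.12 and ERCC5 -0.06, and each 95% interval held 0.

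Genes measured by several features allowed a check within the array. Of 28 genes with at least 2 features on at least 2 arrays each, 14 had feature means of 1 sign and 14 of both. In a fit with every feature as its own row, 15 of the 59 features with 4 values that belong to 27 of these genes passed, 14 lower and 1 higher, where 19.4% of all features passed. With the genes of 1 feature added it was 20 of 78, 18 lower and 2 higher. Features of 1 gene share their RNA and are not independent. MNAT1 had 5 features with at least 2 values, all with means below 0 (-0.74 to -0.09), and 4 of them passed. GTF2H1 had 3, from -0.67 to -0.26, of which 2 passed.

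POLR1D was measured by features that disagree. One was at -0.46, -0.76, -0.69 and -1.05, with a mean of -0.74 ± 0.25 (SD, n = 4), and passed (limma adjusted p = 0.00701 over single features). The other was at -0.35, -0.21, 0.37 and 0.24, with a mean of 0.01. The call on POLR1D thus rests on 1 of its 2 features. TAF1, the largest TFIID subunit, had features past the test in both directions, at -0.37 and 0.37 (limma adjusted p = 0.0281 and 0.0310 over single features), which average out in the gene mean of 0.02. It was the 1 gene of the 28 with calls both ways. For GTF2E2, 1 of 2 features passed (-0.34) and the other was at -0.02.

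**Figure D4:**
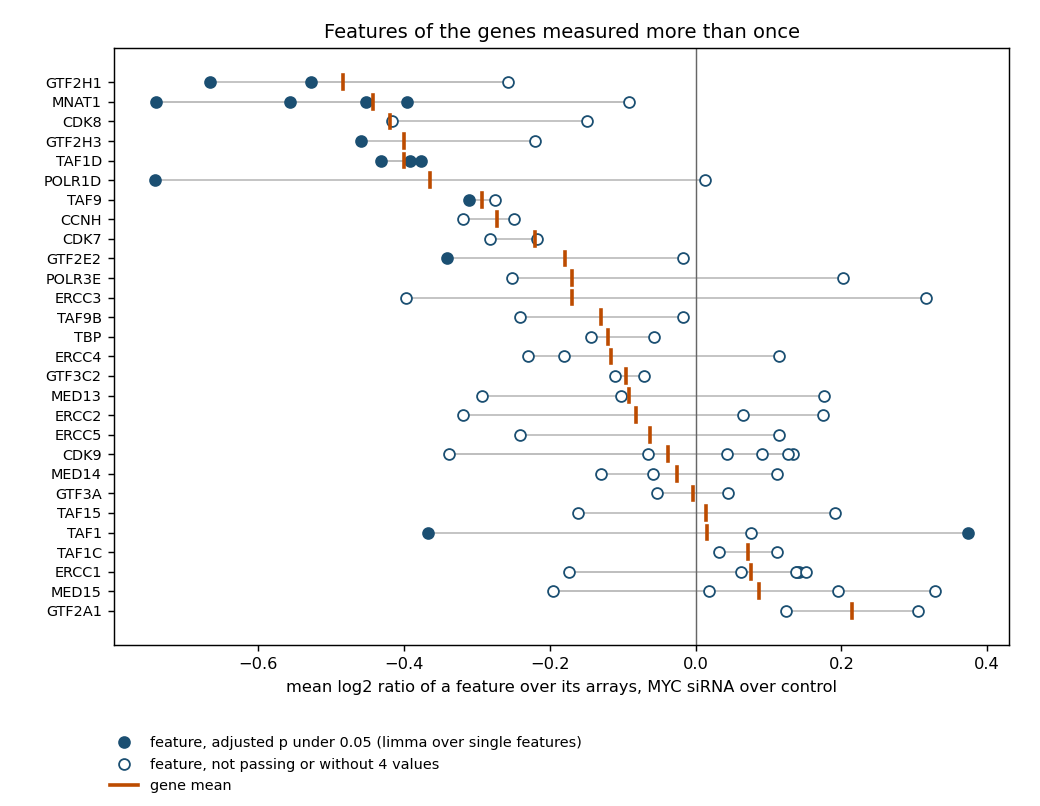
Mean log2 ratio (x axis, MYC siRNA over control) of each feature of the 28 genes with several features, filled where the feature passed limma over single features, with the gene mean in orange. Features of TAF1D, TAF9 and CCNH lie close together, while those of POLR1D and TAF1 lie far apart.

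The plot of features shows wide gaps also for genes that did not pass, such as ERCC3, whose features averaged -0.40 and 0.32. Of the 46 genes, 19 rested on 1 feature, among them POLR2H, RPAP2, MED1, GTF2F2 and ERCC8, and for these no such check could be made.

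Within the 2 arrays against control siRNA 0 of the 46 genes passed limma, as did 0% of all rows, and 13 (28.3%) had an unadjusted p under 0.05, where 23.9% of all rows did. Within the 2 against no siRNA 5 passed (10.9%), 4 lower and 1 higher, where 10.2% of all rows passed. In that fit the standard error was a pooled one, so the p-values of these genes followed their means alone. There 11 genes (23.9%) had an unadjusted p under 0.05, where 23.8% of all rows did. Within these pairs the members' shares were thus near those of all rows. All 11 genes called over the 4 arrays had the same sign in both pairs. They were picked by their mean over these same arrays, so the kept sign is no separate support. Leaving out 1 array gave between 0 and 4 calls, namely 4, 0, 0 and 1 when the arrays were dropped in the order above. The shares of all rows that passed were 6.49%, 0.0588%, 0% and 3.44%. At an unadjusted p under 0.05 in limma there were 13, 13, 16 and 13 genes (28.3%, 28.3%, 34.8% and 28.3%), where all rows had shares of 29.5%, 27.9%, 32.1% and 26.4%. These too lie near the shares of all rows. In each of those 4 fits the 11 genes kept their sign and had an unadjusted p under 0.05. Their selection over all 4 arrays favours this, so it gives no separate support either. Over all rows the count fell from 1073 to between 0 and 441, with fewer residual degrees of freedom.

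As fitted with both terms in 1 model, no gene of the set passed for time or for the kind of control. RPAP2 passed for the latter under 3 of the alternatives given above. Between 24 h and the early arrays 0 of 46 passed limma, and 0 had an unadjusted p under 0.05, where 0.118% of all rows passed and 10.1% had such a p. Between no siRNA and control siRNA 0 passed and 3 had an unadjusted p under 0.05 (RPAP2, CDK8 and POLR3E), where 0.0883% of all rows passed and 10.1% had such a p. CDK8 differed by -0.55 and POLR3E by 0.42 (limma adjusted p = 0.324 and 0.440). For POLR3E, 1 feature had values against no siRNA alone. With features complete on all arrays its difference was 0.25, with a limma unadjusted p of 0.194. These tests leave 1 residual degree of freedom, and the median standard error of a difference over all rows was 0.18. Even the difference of 0.82 in RPAP2 did not pass, so smaller ones may have gone undetected.

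A promoter window of 300 bases was found in RefSeq for 43 of the 49 genes. CACGTG was present in 10 of them (23.3%), against 7.43% of all 27305 windows and 10.9% of the 3239 windows of named genes tested here. The tested genes have 4 values, and of the 40 windows of members with 4 values 9 held CACGTG (22.5%). The wider motif CANNTG, of which CACGTG is 1 form, was in 51.2% of the 43 windows and in 68.9% of all windows. TATAAA, searched on both strands, was in 4.65% of them (GTF2B and TAF4B) and in 12% of all windows. The copies of CACGTG, with 10 bases either side, are given 5′ to 3′ on the strand of the gene, to show how alike or unlike their surroundings are. The E-box is in capitals.

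CDK7: cgacaggcgtCACGTGacgggtgggg
CDK8: gggctggttcCACGTGgtgcatttgg
GTF2A1: gaagccacgcCACGTGaccagtcctc
GTF2B: aatcgcaaagCACGTGacgtatggga
GTF3C2: ggaccaagcaCACGTGtttaccttgt
POLR3E: cgctccccccCACGTGtccgccggag
TAF12: atatcgccacCACGTGtcggagggca
TAF4B: ttgcccctccCACGTGataggtttct
TAF5L: gcgtccccacCACGTGggaccggtac

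They begin 105 bases before the start of the gene in CDK7, 200 in CDK8, 9 in GTF2A1, 113 in GTF2B, 103 in GTF3C2, 1 in POLR3E, 121 in TAF12, 183 in TAF4B and 107 in TAF5L. The means of tested genes that hold the motif ran from -0.48 (GTF2H1), among the lowest of the set, to 0.21 (GTF2A1), among the highest. Of the 9 tested genes with CACGTG 1 fell (GTF2H1), and of the 31 without it 9 fell and 1 rose. The medians were -0.11 with and -0.13 without the motif, and no test of the difference was run. Among all named genes tested with a window, 11.6% of those with CACGTG and 9.81% of those without it were lower. No match says only that these letters are not in this window.

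Other genes of the same machinery, listed by function, were thinly covered: 20 of 153 had a value on all arrays, and 5 fell, 0 rose and 15 did not pass (median -0.09). Over all rows 15.8% were called and 10.2% were lower. Of 16 genes listed with P-TEFb and elongation, a list that also holds other factors such as DRAP1, 4 fell. CTR9, of the PAF1 elongation complex, averaged -0.47 ± 0.24, CDK12, a kinase of the polymerase II tail, -0.42 ± 0.26, TCEA1, the elongation factor TFIIS, -0.35 ± 0.12, and DRAP1, a subunit of the repressor NC2, -0.33 ± 0.15 (SD, n = 4 each). Limma's adjusted p lay between 0.0250 (CTR9) and 0.0406 (DRAP1). TFAM, which activates transcription of mitochondrial DNA, had the lowest mean of the list, at -0.75.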

How the data were processed

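Per the labels, total RNA was extracted with Trizol, reverse transcribed from oligo dT and labelled with Cy5 (MYC siRNA) or Cy3 (control). The deposited table holds 1 ratio per feature and array as the authors processed it, read here as log2. For its log base, direction, background correction and normalization the sources used here give nothing. Symbols came from the platform annotation and were updated by Entrez ID through RefSeq of GRCh38.p14 (10124 of 10165 features with 1 symbol matched). Features of 1 gene were averaged on each array, and 6798 rows with 4 values were fitted with limma 3.58.1 in R 4.3.3 (lmFit, eBayes): the mean against 0, and time and kind of control as terms of 1 model. The Benjamini-Hochberg adjustment ran over all rows, threshold 0.05. Nothing in the labels says that the arrays came from separate cultures, so a p-value reflects only how these 4 arrays vary, which may be technical. The moderation added 6.31 degrees of freedom to 3 for the mean and 17.5 to 1 for the terms, so the latter rest mostly on the pooled spread. Members, gene lists and role groups were chosen with earlier results of these data known. All members could be named, with their group and calls, and of other genes MYC, marker lists and listed machinery genes past the test. CCNC and CDK19, listed machinery genes that did not pass, were named outside this rule. Promoters printed are those of genes past the test with CACGTG, and the lowest without it; the short stretches were chosen with the values known. Alternatives were centred or scaled arrays, the median of features, complete or single features, rows with at least 2 arrays, both terms in the model, robust moderation, each control kind by itself and each array left out. The code was tested on simulated data.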

Additional observations from a re-analysis of the deposited data

Results flagged for a closer look

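Among the 46 genes, CDK9, ERCC2 and TAF15 were above 0 on both early arrays and below 0 on both arrays at 24 h. Their differences between 24 h and early were -0.38, -0.30 and -0.27 on the log2 scale, and did not pass (limma adjusted p = 0.502, 0.667 and 0.709). The 6 features of CDK9 had means of both signs, from -0.34 to 0.13, and those of ERCC2 ran from -0.32 to 0.17. Some features of CDK9 showed the sign pattern by themselves, but no single feature of ERCC2 or TAF15 did. For TAF15, 1 feature was at 0.182, -0.165, -0.282 and -0.383, and the other at -0.052, 0.121, 0.742 and -0.045. The pattern in ERCC2 and TAF15 thus came from averaging features.

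TAF12 stood out by its 6 h array, at 0.003 where the other arrays were between -0.17 and -0.14. The gap was 0.833 of the range, above Dixon's critical value for 4 values, and it was the 1 gene of 46 for which an array lay so far apart. Chance marks about 1 in 20 groups in this way.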

How the results depend on the processing

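The number of arrays, and a direction that is assumed, limit these results. Arrays could not be paired by replicate number, because these numbers follow the order of listing only and there was a single array per control and time. The model with both terms does compare the times within each kind of control. For time and control kind, a fit over rows with at least 2 arrays adds no tested row, and without 1 array there is no residual degree of freedom, so each term was then fitted by itself, with 0 calls each time.

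Over 46 genes and 13 alternatives, 515 of 598 gene values kept direction and side of the threshold. Those 598 include the 35 genes that were not called in the main fit. The 58 lost calls came from the 11 called genes alone, each with 13 alternatives, and 39 of them with an array left out. The count of called genes was 10 to 13 in the other fits by gene, 20 over single features, 0 for the arrays against control siRNA and 5 for those against no siRNA, and 0 to 4 with an array left out. Over all rows the counts were 1971 over single features, 1980 with time and control as terms, 0 and 691 for the same pairs of arrays, and 0 to 441 with an array left out. For listed machinery genes they were 12, 9, 0, 3 and 0 to 1. By kind of control, 1 gene (RPAP2) passed with centred arrays, with the median of features and with complete features. The median of the genes ran from -0.16 to -0.08. CANNTG was found in 22 promoter windows where CACGTG was in 10.

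Direction changed in 20 cases, in 11 genes that did not pass. With centred arrays GTF3A was at 0.00075, and with scaled arrays at 0.0038 (CDK9 0.0029). With control siRNA as the only control CDK9 was at 0.029, GTF3A at 0.11 and MED14 at 0.045. On the same arrays MED23 was at 0.067, POLR1E at -0.038 and TAF4B at 0.071. With no siRNA as the only control POLR3E was at 0.038, a value that averages in a feature measured on those arrays alone. With an array left out, CDK9 ran from -0.11 to 0.076, ERCC2 from -0.15 to 0.002, GTF3A from -0.16 to 0.075, MED14 from -0.085 to 0.025, TAF1 from -0.016 to 0.041, TAF15 from -0.057 to 0.091 and TAF5L from -0.12 to 0.0083. The cause was not tested.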

Other observations

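The kinase module of Mediator held genes on both sides of 0. CDK8 averaged -0.42 and its cyclin CCNC -0.32, while CDK19, the paralog that can take the place of CDK8, averaged 0.39 (SD 0.30, n = 4; limma adjusted p = 0.0528). CDK19 was above 0 on all 4 arrays, with values of 0.11, 0.55, 0.16 and 0.73, higher at 24 h than early under both kinds of control. None of these 3 genes passed, their difference was not tested, and CCNC and CDK19 were named after their values were seen.

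Some subunits of 1 complex had means of opposite sign. The TFIIF subunits GTF2F2 and GTF2F1 averaged -0.37 and 0.14, the TFIIA subunits GTF2A2 and GTF2A1 -0.18 and 0.21, and the SL1 subunits TAF1D and TAF1C -0.40 and 0.07. Others had means of the same sign, such as GTF3C2 and GTF3C5 at -0.10 and -0.16. These pairs were picked after their values were seen, and the differences within them were not tested.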
